A study of Gossypium hirsutum with 15 samples.

Results

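TM-1 is the genetic standard line of Upland cotton (Gossypium hirsutum). Its fibers at 19 days post-anthesis (DPA) were compared with its fibers at 16 DPA, using the TM-1 channel of 6 of the 15 dual-dye cDNA arrays of the study, 3 at 19 DPA and 3 at 16 DPA. The other channel of every array held RNA of the immature fiber mutant (im), a near-isogenic line in the TM-1 background, at the same stage, and the study also covered 13, 22 and 25 DPA with 3 arrays each. The plants of both lines were grown in the field, flowers were tagged at anthesis, and RNA was pooled from several plants and amplified before labeling. Sampling was described as 3 biological pools per stage but hybridization as 2 biological replicates and a dye swap, so the spread between the arrays of a stage may be technical in part. The labels and the methods name fiber as the tissue, whereas the series record names ovules that still carried their fibers. No seed, ovule or fiber marker could be checked, as probe names and genes are not paired in any table used here.

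A cotton fiber is a single elongated cell of the seed coat. It first lengthens within a thin, extensible primary wall, and then deposits a thick secondary wall that is almost pure cellulose, made at the plasma membrane by cellulose synthase complexes from sucrose-derived sugar. The switch between these phases is known for a broad change of the transcriptome, in which genes of elongation are turned down and genes of secondary wall synthesis are turned up. Whether single probes measured here belong to either group could not be read from the probe names.

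Each array carried 29184 cDNA probes and 816 control spots. A probe counted as measured on an array where at least one dye reached 400 units after subtraction of the local background, which held for 14363 to 18417 probes on the arrays of 19 DPA and for 14937 to 17371 on those of 16 DPA. TM-1 itself reached 400 units on all 6 arrays for 7929 probes and on none of them for 7655 probes. By the source names, TM-1 was in Cy3 on replicates 1 and 3 and in Cy5 on replicate 2 at both stages, so the dyes weighed equally in the 2 stages. The direction between the lines is not settled, since the material labels exchange the lines at 16 and 22 DPA and the methods place TM-1 in the other dye throughout. Under the methods' assignment, every value given here for TM-1 is one of im and the reverse. The dye fields of the labels give a further reading, with im in Cy5 and TM-1 in Cy3 on every array and so no dye swap. Across probes, which are not independent replicates, the ratio of Cy5 to Cy3 on replicate 2 correlated with that on replicates 1 and 3 of its stage at -0.76 to -0.40 in all 10 pairs, whereas replicates 1 and 3 correlated with each other at 0.53 to 0.77. With the lines placed by the dye fields, TM-1 had 151 DEGs with a higher level at 19 DPA and 255 with a higher level at 16 DPA.

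In TM-1, 1680 of 13789 probes tested were differentially expressed (DEGs, adjusted p under 0.05 in limma and a fold change of at least 2). Of these, 575 were higher at 19 DPA, or 4.17% of the probes tested, and 1105 were higher at 16 DPA, or 8.01%. The DEGs higher at 19 DPA had a median fold change of 3.25, with 180 at 4-fold or more, 32 at 8-fold or more and a highest value of 59.2. Those higher at 16 DPA had a median of 2.92, with 256 at 4-fold or more, 60 at 8-fold or more and a highest value of 24.1. Among DEGs that met the conditions set below for naming a probe, the largest fold was 11.01 for those higher at 19 DPA. For those higher at 16 DPA the largest were 8.41 and 7.96, so most of the 60 did not meet these conditions. A faint TM-1 spot was kept where im was bright and raised to at least 50 units, so large folds may rest on faint spots. In fiber RNA, a lower level may stand for less RNA per cell or for fewer cells of a type, which cannot be told apart. The limma fit took in all 15 arrays, treated both channels of an array as a block, and had a median standard error of 0.42 on the log2 scale.

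Which direction held more DEGs depended on the scaling between arrays. The median of all probes tested was a change of -0.21 (19 minus 16 DPA, log2) after Aquantile scaling, so DEGs higher at 19 DPA stood further from the middle of the probes than their fold change shows. With loess only the median was -0.58 and 168 DEGs were higher at 19 DPA and 1954 at 16 DPA. With the medians of all channels set equal it was 0.05, with 1102 higher at 19 DPA and 829 at 16 DPA. No DEG changed its direction under either scaling. Of the 575 DEGs higher at 19 DPA, 168 were still called with loess only and 575 with equal medians, and of the 1105 higher at 16 DPA, 1094 and 821 were. With no filter on faint spots the counts were 2437 higher at 19 DPA and 2156 at 16 DPA of 29184 probes tested, and with the probes of source plates 1 to 16 left out, which are described with the control spots, they were 331 and 1107. With the 6 arrays of 19 and 16 DPA alone they were 367 and 704.

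**Figure D1:**
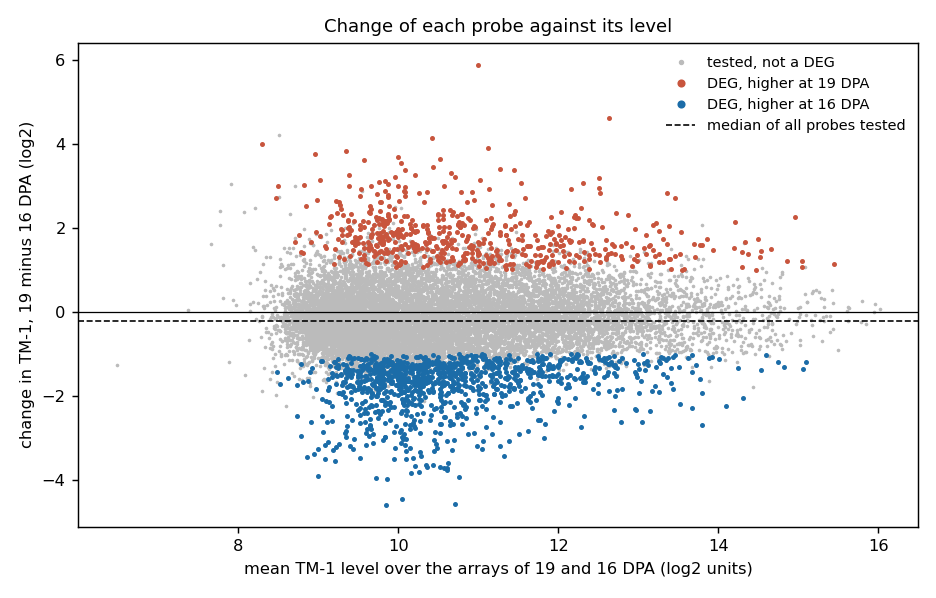
Change in TM-1 between 19 and 16 DPA (log2) of the 13789 probes tested against their mean TM-1 level over the 6 arrays (log2 units), with DEGs higher at 19 DPA and at 16 DPA in colour and the median of all probes, -0.21, as a dashed line. DEGs lie over the whole range of levels, and more of them lie below 0 (1105) than above (575).

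DEGs were found at every level of expression, in unlike shares. Of the 4942 probes with a mean background-subtracted TM-1 intensity under 1000 units over the 6 arrays, 2.99% were DEGs higher at 19 DPA and 3.26% were higher at 16 DPA. Of the 6373 probes between 1000 and 4000 units, 4.52% and 11.5% were, and of the 2189 between 4000 and 16000 units, 5.44% and 8.73%. Among the 285 brightest probes, over 16000 units, the shares were 7.02% and 5.96%, so that only in this class did more probes pass the test with a higher level at 19 DPA. The difference between these shares was not tested.

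A further set of probes crossed the limit of 400 units in TM-1. It was reached on all 3 arrays of 19 DPA and on no array of 16 DPA by 83 probes. By an estimate described below, 77 of them were at least 2-fold higher at 19 DPA. The median estimate over all 83 was 3.70-fold and the highest was 38.4-fold. Of the 83 probes, 42 lie on source plates 1 to 16, which are described with the control spots. In the other direction there were 430 probes, of which 339 were at least 2-fold lower at 19 DPA by this estimate. The median estimate over all 430 was 2.46-fold and the highest was 20.8-fold. Each estimate sets the mean of the brighter stage against, on each array of the dimmer stage, the higher of the probe's own level and the lowest level among probes that reached 400 units there. An unmeasured spot could have had a normalized level above that lowest one, so the estimates may overstate the fold. Most of these probes had too few measured spots for the test, which covered 22 of the 83 and 83 of the 430.

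The levels of the 2 stages were also compared without a model. Of 10257 probes measured on all 6 arrays, 832 (8.11%) had all 3 TM-1 levels of 19 DPA above all 3 of 16 DPA, and 2138 (20.8%) had all 3 below. Among the DEGs measured on all 6 arrays, 362 of the 425 higher at 19 DPA and 902 of the 952 higher at 16 DPA showed no overlap. The same arrays chose the DEGs, so these shares describe them and are not a test. The median SD between the 3 arrays of a stage was 0.49 at 19 DPA and 0.39 at 16 DPA (log2). Across the 10257 probes, which are not independent replicates, the TM-1 levels of 19 DPA correlated at 0.906 between replicates 1 and 2, at 0.813 between 1 and 3 and at 0.796 between 2 and 3, and those of 16 DPA at 0.858 to 0.885. Between the stages, replicates 1 and 2 of 19 DPA correlated with the arrays of 16 DPA at 0.683 to 0.720, whereas replicate 3 correlated with them at 0.760 to 0.817. On this measure replicate 3 of 19 DPA stood nearer to 16 DPA than the other replicates did.

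Replicates 1 and 2 of 19 DPA differed from the other 13 arrays in their background and their control spots. The local background in the Cy3 channel was 972 units on replicate 1 and 797 units on replicate 2, against 284.5 units on replicate 3 of 19 DPA and 365.5, 310.5 and 286 units on the 3 arrays of 16 DPA. In the dye of TM-1 it was 972, 145 and 284.5 units on the 3 arrays of 19 DPA, against 365.5, 87 and 286 units on those of 16 DPA. The 50%DMSO spots, which by their name hold solvent and no cDNA, had a median of 1669.75 and 1895.25 units in the TM-1 dye on replicates 1 and 2 of 19 DPA after background subtraction. On the 13 other arrays, replicate 3 of 19 DPA included, it was 12 to 287.5 units. Empty (BLANK) spots were near 0 in this dye on every array, with medians of -12 to 10.75 units.

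Probes of the lowest plate numbers were bright on the same 2 arrays. The number that follows the P in a probe name (1 to 76) is read here as that of the source plate, which the sources used here do not spell out. On plates 1 to 4, 94.0% and 96.2% of the probes reached 400 units in TM-1 on replicates 1 and 2 of 19 DPA, against 22.9% on replicate 3 and 16.9% to 35.0% over the 13 other arrays. The shares on replicates 1 and 2 fell over the next groups of 4 plates, to 73.4% and 81.1%, 47.7% and 63.3%, and 30.7% and 50% on plates 13 to 16. Probes that were under 400 units in both dyes on all 12 arrays of the other stages had medians of 822 and 1348 units on these arrays on plates 1 to 4, and of 203 and 236 units on plates 13 to 16, against 60 to 88 units on replicate 3 over all groups of plates. From plate 17 on, the medians were -107 and 94 units.

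**Figure D2:**
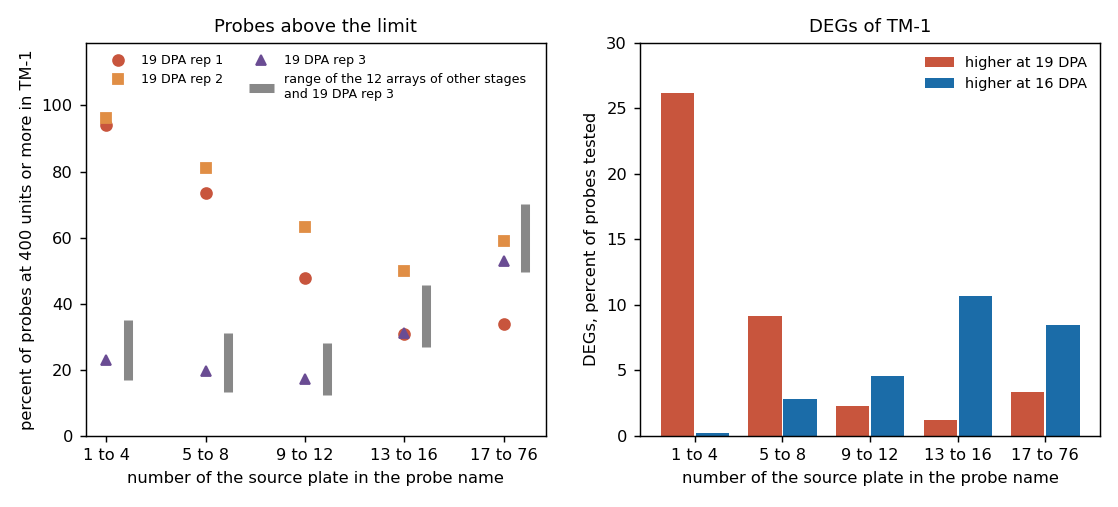
Left, percent of cDNA probes at 400 units or more in TM-1 on the 3 arrays of 19 DPA by source plate, with the range over the 13 other arrays (replicate 3 of 19 DPA and the arrays of the other stages) as a grey bar. On plates 1 to 4, replicates 1 and 2 lie at 94.0% and 96.2% and replicate 3 at 22.9%. Right, DEGs of TM-1 as percent of the probes tested, where the share higher at 19 DPA is 26.2% on plates 1 to 4 and 3.34% on plates 17 to 76.

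The counts of DEGs moved with the plate number. Of the probes tested on plates 1 to 4, 26.2% were DEGs higher at 19 DPA and 0.216% were DEGs higher at 16 DPA. On plates 17 to 76, which hold 12136 of the probes tested, the shares were 3.34% and 8.46%, or 405 and 1027 DEGs. Plates 1 to 16 held the other 170 DEGs higher at 19 DPA, and 78 of those higher at 16 DPA. Replicate 3 of 19 DPA measured 392 of the 405 DEGs higher at 19 DPA on plates 17 to 76, but 74 of the 170 on plates 1 to 16. The rest were under 400 units in both dyes there. Among those measured, 284 of 392 on plates 17 to 76 were at least 2-fold higher on this array (72.4%), against 29 of 74 on plates 1 to 16 (39.2%). For DEGs higher at 16 DPA these shares were 69.0% and 71.8%. With plates 1 to 16 left out before normalization, 327 of the 405 DEGs higher at 19 DPA and 988 of the 1027 higher at 16 DPA were called again. Of the probes past 400 units at 19 DPA alone, 42 of 83 were on plates 1 to 16, and of those past it at 16 DPA alone 27 of 430 were. Plates 17 to 76 hold 23040 of the 29184 cDNA probes, and held 41 of the 83 and 403 of the 430. The shares also varied over the 48 blocks of the array, which held 184 to 354 of the probes tested each. They ran from 1.05% to 7.07% for DEGs higher at 19 DPA, with a median of 4.21%. For DEGs higher at 16 DPA they ran from 2.07% to 15.5%, with a median of 6.66%. Beyond these values, the part of the bright control spots, of the background and of the position on the array in the counts was not tested.

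On replicate 3 of 19 DPA, the array with low background and dark control spots, most measured DEGs kept their direction at a smaller size. Of the 575 DEGs higher at 19 DPA, 466 were measured there, and the rest were too faint in both dyes. Of the 466, 455 were above the mean of 16 DPA and 313 (67.2%) were at least 2-fold above it. The median change was 1.32 there. The medians on replicates 1 and 2 were 1.71 and 2.04 (log2). Where the mean TM-1 intensity was under 1000 units, 53 of the 148 DEGs higher at 19 DPA were measured on replicate 3. Of the 161 such DEGs higher at 16 DPA, 153 were. Of the 1105 DEGs higher at 16 DPA, 1082 were measured on replicate 3, 1079 were below the mean of 16 DPA and 749 (69.2%) were at least 2-fold below it, with a median of -1.31, while replicates 1 and 2 had -2.06 and -1.39. These arrays chose the DEGs, so the values describe them and are not a test. With 19 DPA represented in the fit by replicate 3 alone, 100 DEGs were higher at 19 DPA and 348 at 16 DPA, and the lone array was then taken to vary like the other groups. Without replicate 1, 2 or 3 of 19 DPA, 312, 264 and 971 DEGs were higher at 19 DPA and 550, 1067 and 1380 at 16 DPA. Without replicate 1 of 16 DPA, 382 were higher at 19 DPA, and without replicate 2 of 16 DPA the count higher at 16 DPA was 57.5% of the full one.

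**Figure D3:**
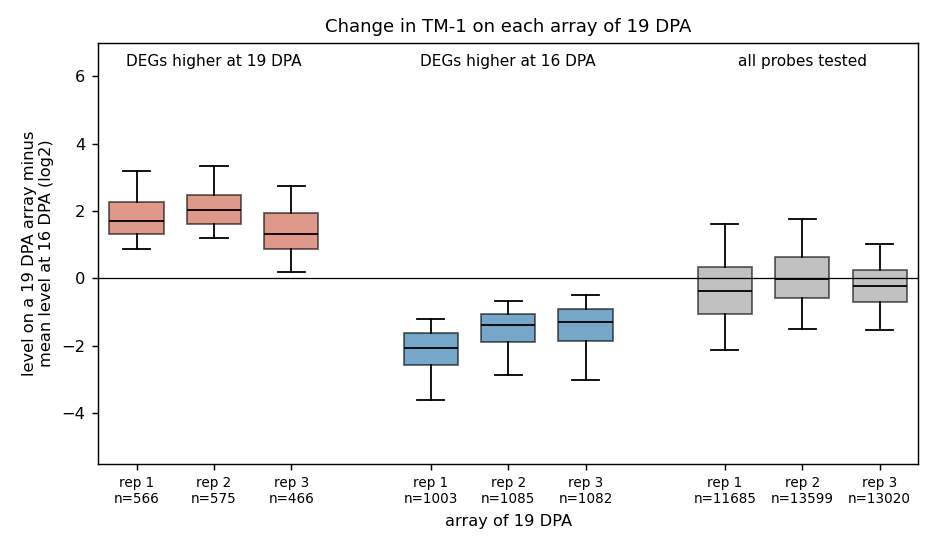
Level of TM-1 on each array of 19 DPA minus the mean level at 16 DPA (log2) for DEGs higher at 19 DPA, DEGs higher at 16 DPA and all probes tested, with n the probes measured. Boxes show the quartiles and the median, and whiskers the 5th and 95th percentiles. DEGs higher at 19 DPA have medians of 1.71, 2.04 and 1.32 on replicates 1, 2 and 3, and those higher at 16 DPA have medians of -2.06, -1.39 and -1.31.

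The change was also read within arrays of one kind. These are parts of the 6 arrays that chose the DEGs, so the values describe the DEGs and are not a test. Where TM-1 was in Cy3 (2 arrays of each stage), DEGs higher at 19 DPA had a median change of 1.58 and those higher at 16 DPA of -1.58. Where it was in Cy5 (1 array of each stage), the medians were 1.94 and -1.54. Files also differ in their spot flags, since replicates 1 and 2 of 19 DPA and replicate 1 of 16 DPA hold no negative flags while the other 3 do. Among the files without negative flags the medians were 2.06 and -1.71, and among those with them 1.25 and -1.31, where 445 of 466 and 1079 of 1082 DEGs kept their direction. With this difference as a term in the fit, 502 DEGs were higher at 19 DPA and 933 at 16 DPA.

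The probes described next had the largest fold changes among those that reached 400 units in TM-1 on all 6 arrays, showed no overlap between the stages and changed by at least 2-fold on replicate 3 as well, a condition met by 232 DEGs higher at 19 DPA and by 280 of those higher at 16 DPA. Probe 384P71_H_12 had 2983, 5338.5 and 3014.5 units in TM-1 on replicates 1, 2 and 3 of 19 DPA, against 404.5, 657.5 and 447 units at 16 DPA. All 3 values of 19 DPA were well above all 3 of 16 DPA, which lay close to the limit of 400 units. After normalization it was 11.01-fold higher at 19 DPA (log2 change 3.46 ± 0.43, SE, n = 3 arrays each, limma adjusted p = 1.226e-05), and 7.96-fold higher on replicate 3 alone. In TM-1 it was under 400 units on all 3 arrays of 13 DPA, at 271 to 319 units, and its mean level was highest at 22 DPA, at 13.16 ± 0.32 on the log2 scale (SD, n = 3).

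Probe 384P45_G_04 had 3645, 6717.5 and 9862 units in TM-1 at 19 DPA, against 473, 935 and 1284 units at 16 DPA. The lowest value of 19 DPA was above the highest of 16 DPA. The change was 10.6-fold (log2 3.41 ± 0.37, SE, n = 3 arrays each, limma adjusted p = 8.657e-07), and 15.7-fold on replicate 3, more than on the other replicates. This probe did not rise steadily over the study. At 13 DPA its TM-1 level was 11.49 ± 0.44 on the log2 scale, against 9.57 ± 0.53 at 16 DPA, 12.97 ± 0.50 at 19 DPA, 13.72 ± 0.16 at 22 DPA and 13.42 ± 0.78 at 25 DPA (SD, n = 3 each), so 16 DPA was the low point of its course.

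Probe 384P21_M_19 had 451.5, 1093 and 890 units in TM-1 at 19 DPA, against 8222, 12487.5 and 6479 units at 16 DPA. It was 8.41-fold lower at 19 DPA (log2 change -3.07 ± 0.31, SE, n = 3 arrays each, limma adjusted p = 4.978e-07), and 8.05-fold lower on replicate 3. Its level stayed low afterwards, with 726 to 1412.5 units at 22 DPA and 770 to 1494.5 units at 25 DPA. Probe 384P45_D_07 had 562.5, 1063 and 1696 units at 19 DPA, against 7483, 17248 and 11477 units at 16 DPA, and was 7.96-fold lower at 19 DPA (log2 change -2.99 ± 0.35, SE, n = 3 arrays each, limma adjusted p = 2.202e-06) and 5.31-fold lower on replicate 3. It was lowest at 25 DPA, at 548 to 728.5 units. None of the 4 probes lies on plates 1 to 16.

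**Figure D4:**
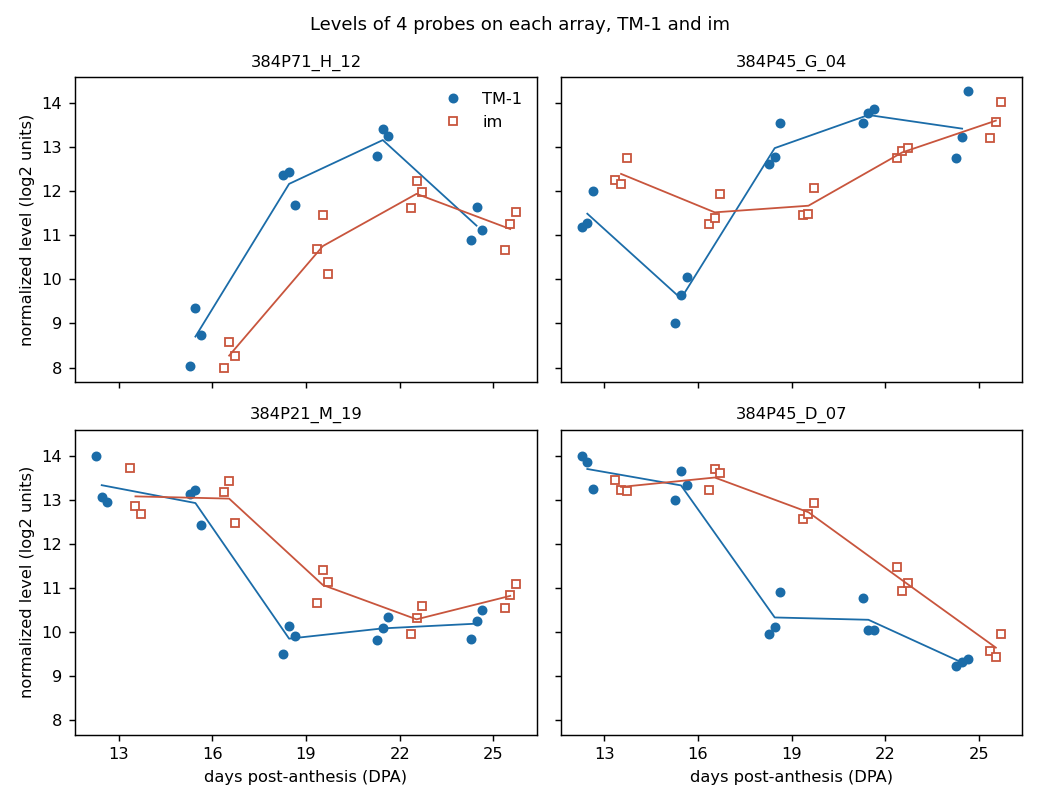
Normalized level (log2 units) of 4 probes on each array by stage (DPA), with TM-1 as filled circles, im as open squares and lines through the stage means. The upper probes are 11.01-fold and 10.6-fold higher in TM-1 at 19 than at 16 DPA, the lower ones 8.41-fold and 7.96-fold lower. No value is shown for 384P71_H_12 at 13 DPA, where both dyes were under 400 units.

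The arrays of 13, 22 and 25 DPA showed how the same probes stood on either side of the interval. They did not enter the change between 19 and 16 DPA by which DEGs were chosen. They did enter the scaling and the estimate of spread in the fit that called the DEGs. Between 22 and 13 DPA, the 460 DEGs higher at 19 DPA that could be tested had a median change of 0.92 on the log2 scale in TM-1 (SD 0.09 over the 3 arrays of 22 DPA), and 381 of them (82.8%) were higher at 22 DPA. The 975 testable DEGs higher at 16 DPA had a median change of -1.28 (SD 0.19), and 899 (92.2%) were lower at 22 DPA. Over all 12596 probes tested in both comparisons the median was -0.29 and 36.4% were higher at 22 DPA. Probes that passed the test between 22 and 13 DPA numbered 918 higher at 22 DPA (6.24% of 14700 tested) and 1917 lower (13%). Of the 12596 probes tested in both comparisons, 826 (6.56%) passed it as higher and 1809 (14.4%) as lower. Among the DEGs of 19 against 16 DPA, 197 of the 460 (42.8%) passed it as higher and 554 of the 975 (56.8%) as lower, while 9 and 8 passed it in the opposite direction. Both tests drew on the spread of a probe over all 15 arrays, so these counts are not independent of the calls. For DEGs called in a fit of the 6 arrays of 19 and 16 DPA alone, the median changes were 1.22 and -1.68.

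The picture was alike at 25 DPA, which shares the 13 DPA arrays with the comparison before. The medians against 13 DPA were 0.87 and -1.25, with 77.0% of 457 DEGs higher and 88.7% of 927 lower at 25 DPA. By source plate, DEGs higher at 19 DPA had a median change between 22 and 13 DPA of 1.05 on plates 17 to 76 (328 of 382 higher) and of 0.37 on plates 1 to 16 (53 of 78 higher). For DEGs higher at 16 DPA the medians were -1.28 and -1.33. Refitted without plates 1 to 16, the medians over the DEGs then called were 1.23 and -1.22.

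**Figure D5:**
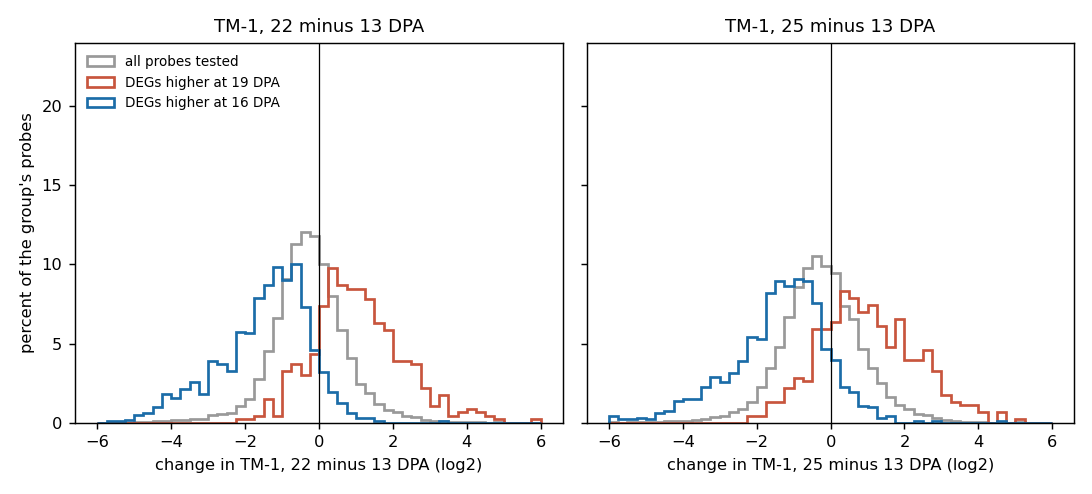
Distribution of the change in TM-1 between 22 and 13 DPA (left) and between 25 and 13 DPA (right) on the log2 scale, as percent of the probes of each group, for DEGs higher at 19 DPA, DEGs higher at 16 DPA and all probes tested between 19 and 16 DPA. The groups overlap, with medians of 0.92, -1.28 and -0.29 on the left, and values beyond 6 are drawn in the outermost bins.

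Over the 5 stages, the median TM-1 level of the DEGs higher at 19 DPA was 10.10 at 13 DPA, 9.74 at 16 DPA, 11.62 at 19 DPA, 11.40 at 22 DPA and 11.30 at 25 DPA on the log2 scale. That of the DEGs higher at 16 DPA was 11.54, 11.29, 9.53, 10.03 and 10.09 in the same order. The first group was lowest at 16 DPA and highest at 19 DPA, the stages that chose it, and the second was highest at 13 DPA and lowest at 19 DPA. At 22 and 25 DPA both lay nearer to their levels of 19 DPA than to those of 16 DPA. The median over all probes tested moved less, between 10.26 at 19 DPA and 10.68 at 13 DPA.

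The im mutant was measured on the same arrays, so its change over the interval is not independent of that of TM-1. The 575 DEGs of TM-1 higher at 19 DPA changed by a median of 1.70 in TM-1 and 1.19 in im, where 341 of them rose by at least 2-fold and 232 passed the test. The 1105 DEGs higher at 16 DPA changed by a median of -1.55 in TM-1 and -0.96 in im, where 528 were at least 2-fold lower at 19 DPA and 356 passed the test. In im, 4.32% of all probes tested were DEGs higher at 19 DPA and 5.05% were higher at 16 DPA. Since these probes were chosen for their change in TM-1, a smaller median in im could be found without any difference between the lines, and the difference was tested for each probe instead.

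The log2 ratio of TM-1 to im shifted by at least 2-fold between 16 and 19 DPA at 595 probes in favour of TM-1 (4.32% of 13789 tested) and at 974 probes in favour of im (7.06%), at an adjusted p under 0.05 in limma. Of the DEGs of TM-1 higher at 19 DPA, 163 (28.3%) shifted towards TM-1 and 15 towards im. Of those higher at 16 DPA, 331 (29.95%) shifted towards im and 4 towards TM-1. Under the material labels the counts were 1253 probes in favour of TM-1 and 1732 in favour of im, with a shift towards TM-1 at 54.4% of the 1139 DEGs then higher at 19 DPA and towards im at 51.5% of the 1883 then higher at 16 DPA. Under the methods' assignment the counts turned to 974 and 595, with shares of 34.5% and 13.4%. Under the dye fields of the labels no probe shifted by this test in limma, and 77 (0.558%) had an unadjusted p under 0.05. By the source names the latter share was 40.5%. The dye fields give replicate 2 the same sign as replicates 1 and 3, with which its dye ratios correlated negatively in all 10 pairs. The shares of DEGs stand beside the ones of all probes without a test, since both readouts use the TM-1 channel of the same arrays. A further 1056 of the probes with a shift were not DEGs of TM-1 over the interval, and 272 of these were DEGs of im.

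The rise of 384P45_G_04 differed between the lines by this test. In im its level was 11.67 ± 0.35 at 19 DPA and 11.52 ± 0.36 at 16 DPA on the log2 scale (SD, n = 3 each), a change of 0.15 ± 0.37 (SE, limma adjusted p = 0.8442). Its log2 ratio of TM-1 to im was 1.15, 1.296 and 1.47 on the arrays of 19 DPA, against -2.24, -1.74 and -1.87 on those of 16 DPA, a shift of 3.26 ± 0.20 (SE, limma adjusted p = 5.999e-08). By the source names, the lines thus changed places on every array. Of the other probes named above, 384P45_D_07 shifted by -2.21 ± 0.21 (limma adjusted p = 2.493e-06), with a change in im of -0.79 ± 0.35 that did not pass the test (adjusted p = 0.1549). Probe 384P21_M_19 fell in both lines and shifted by -1.12 ± 0.13 (adjusted p = 2.282e-05). For 384P71_H_12, which rose in both lines, the shift of 0.98 ± 0.25 (adjusted p = 0.01011) was under 2-fold.

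The shifts described next were the largest among probes with a shift at 400 units or more in both lines on all 6 arrays. Their ratios of TM-1 to im also had to show no overlap between the stages and a shift of at least 2-fold on replicate 3. These conditions were met by 195 probes towards TM-1 and 400 towards im, so the lack of overlap was fixed by the choice. Towards TM-1, 384P16_E_08 and 384P45_G_04 had the largest shifts. For 384P16_E_08 the log2 ratio of TM-1 to im was 0.91, 0.65 and 0.94 at 19 DPA, against -2.70, -2.57 and -2.56 at 16 DPA (shift 3.44 ± 0.26, SE, limma adjusted p = 7.042e-07). It was 3.64-fold higher in TM-1 and 2.99-fold lower in im at 19 DPA. This probe lies on plate 16. Its TM-1 change was 1.60, 1.98 and 2.02 on replicates 1, 2 and 3 of 19 DPA, and the part of the bright plates in it was not tested.

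Towards im, 384P49_P_18 and 384P45_I_07 had the largest shifts. Probe 384P49_P_18 had 24525.5, 21830 and 19886.5 units in TM-1 at 19 DPA, against 22008, 58959 and 24451 units at 16 DPA, which overlap, and its TM-1 change of -0.09 ± 0.56 did not pass the test (SE, limma adjusted p = 0.9424). In im it had 31498.5, 34262 and 21352 units at 19 DPA, against 2866, 5139 and 3876 units at 16 DPA, 10.2-fold higher at 19 DPA (adjusted p = 0.0006105). The shift was -3.44 ± 0.31 (adjusted p = 4.726e-06), and at 13 DPA the probe was under 400 units in both lines on all 3 arrays. Probe 384P45_I_07 was 4.52-fold lower in TM-1 at 19 DPA (log2 change -2.18 ± 0.36, SE, limma adjusted p = 0.0001655), with a log2 ratio of TM-1 to im of -2.02, -1.86 and -1.79 at 19 DPA, against 1.34, 1.41 and 1.41 at 16 DPA. Under the material labels, which exchange the lines at 16 and 22 DPA, the shift of 384P45_G_04 turned to -0.65, that of 384P16_E_08 to -1.78 and that of 384P49_P_18 to 2.89, and that of 384P45_I_07 was -0.50.

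Control spots that were printed once in each of 48 blocks gave a reading of the dyes that uses no probe. What they hold is not stated in these sources. By the source names, the Y5 spots were brighter in the dye of im on all 15 arrays, and the Y6 and Y8 spots were brighter in the dye of TM-1 on all 15. The brighter dye of these 3 of the 8 Y names therefore turned on replicate 2 at every stage, 16 DPA included. It was at the upper limit of the scanner on all 15 arrays for Y5 and Y6 and on 9 of 15 for Y8, so no fold is given. The other 5 Y names did not turn in this way. Y1 and Y7 were brighter in Cy5 on all 15 arrays, with both dyes at the limit on 11 and 7 of them. Y2 was brighter in Cy5 on 12 arrays and in Cy3 on 3, and Y3 and Y4 each in Cy5 on 10 and in Cy3 on 5. In terms of the lines, the dye of im was the brighter one on 9 arrays for Y2, on 13 for Y3 and on 9 for Y4. The HEX spots were brighter in Cy3 on all 15 arrays. Whether the amounts in these spots went with a line or with a labeling reaction was not tested.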

How the data were processed

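RNA from TM-1 and im fibers was amplified, labeled with Cy5 and Cy3 and hybridized pairwise to 15 cDNA arrays, 3 per stage. Scanning and spot finding were done by the authors with LuxScan, and per array they deposited the intensities of spots and of local background in Cy5 and Cy3. A deposited table of processed values, log2(Cy5/Cy3), was also made by the authors. It correlated at 0.959 to 0.996 with the ratios of the intensities and was not turned for the dye swap. The table served as an alternative (0 columns from other series). Versions in the submitters' processing notes are limma 3.4.5 and R 2.12.2.

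Background-subtracted median intensities were raised to at least 50 units, and spots with both dyes under 400 units were left out, a filter that the methods name without saying how it treats a spot faint in one dye only. The 29184 cDNA probes were normalized by loess within arrays and Aquantile between arrays with limma 3.58.1 in R 4.3.3. The channels were fitted over 10 groups of line and stage, with an intraspot correlation of 0.862 estimated from at most 3000 probes. Probes measured on at least 2 arrays of each stage were tested, with Benjamini-Hochberg adjustment over all of them, and a probe was a DEG at an adjusted p under 0.05 with at least a 2-fold change. The difference between the lines was tested on log2(TM-1/im). Every adjusted p is from limma. The fits were tested on data simulated with normal noise and no bright plates. The fit of the stages called 28% of the probes changed by 1.3 (log2) and 71% of those changed by 2, and 10 other probes. The fit of the ratio called 81% and 96%, and 2 other probes.

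TM-1 was assigned to a dye by the source names. Replicate numbers did not enter the fit. Probes named had the 2 largest fold changes in each direction among those that passed the test and reached 400 units on all 6 arrays. They also showed no overlap and changed by at least 2-fold on replicate 3 of 19 DPA. For the lines, the 2 largest shifts in each direction were taken among probes at 400 units in both lines. Their ratios also showed no overlap between the stages and a shift of at least 2-fold on replicate 3. The comparison, the rules and the groups of probes were chosen with earlier results of these data known. Probes have no gene names in the tables used here, so gene lists and markers were not analysed. The alternatives were other dye assignments, filters, background corrections, scalings and sets of arrays, a dye term, a replicate block and the value table. Leaving out the first 16 source plates, using foreground medians, a term for files without negative flags the value table and the dye fields of the labels were chosen after seeing the data. Precision is limited by the number of arrays per stage.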

Additional observations from a re-analysis of the deposited data

Results flagged for a closer look

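The change between 19 and 16 DPA differed between TM-1 and im at 1569 probes by a test of the difference itself. Among the probes that met the conditions for naming a shift, the largest shifts of log2(TM-1/im) towards TM-1 were 3.44 for 384P16_E_08 and 3.26 for 384P45_G_04. Those towards im were -3.44 for 384P49_P_18 and -3.28 for 384P45_I_07. That the ratios did not overlap between the stages was one of these conditions.

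Control spots that no comparison used gave a signal on replicates 1 and 2 of 19 DPA. The 50%DMSO spots had medians of 1669.75 and 1895.25 units in the TM-1 dye on these arrays, where 47 and 43 of 48 spots reached 400 units, against 12 to 287.5 units on the 13 other arrays. Spots of 5 names that start with CM had medians of 488.25 to 1293.25 units on replicate 1 and of 409.5 to 1380.75 units on replicate 2, against 2.25 to 73.5 units on the 13 other arrays.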

How the results depend on the processing

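Under the material labels, 1139 DEGs of TM-1 were higher at 19 DPA and 1883 at 16 DPA, the lines differed at 2985 probes, and the median changes between 22 and 13 DPA were 0.69 and -0.87. Under the methods' assignment 595 and 696 DEGs were called, with medians of 0.83 and -1.07. Under the dye fields of the labels 151 and 255 DEGs and 0 differences between the lines were called in limma (77 probes had an unadjusted p under 0.05). With no filter on faint spots the counts were 2437 and 2156 and the medians 0.23 and -0.85. Loess alone gave 168 and 1954, equal channel medians 1102 higher at 19 DPA, and the 6 arrays of 19 and 16 DPA alone 367 and 704, with medians of 1.22 and -1.68. With normexp the median of DEGs higher at 19 DPA was 0.80. With 19 DPA represented by replicate 3 alone the counts were 100 and 348. Leaving out plates 1 to 16 gave 331 higher at 19 DPA, with a median of 1.23, and foreground medians gave 988 probes with a difference between the lines. The causes of these moves were not tested.

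Leaving out one array gave 264 to 971 DEGs higher at 19 DPA, 550 to 1380 higher at 16 DPA and 1303 to 1702 probes with a difference between the lines. Same-numbered arrays did not deviate together (r of 0.05, -0.01 and 0.04), and with a replicate block 610 and 1216 DEGs and 1591 differences were called.

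The 4 probes named for their change in TM-1 passed the test in the same direction under each alternative that measured them, except that 384P45_G_04 (0.15) and 384P45_D_07 (-0.79) did not pass under the methods' assignment, nor under the dye fields (2.40 and -2.15). The 4 shifts between the lines passed under each alternative that measured them other than the dye assignments. Under the methods' assignment they were -3.26 for 384P45_G_04, -3.44 for 384P16_E_08, 3.44 for 384P49_P_18 and 3.28 for 384P45_I_07, and under the material labels -0.65, -1.78, 2.89 and -0.50 in the same order. Under the dye fields they were 1.23, 1.299, -0.66 and -1.10, and none passed. With the limit of 400 units, 13789 of 29184 probes were tested.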
